A study of Mus musculus with 2 samples.

Results

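The cells described here are mouse thymocytes chosen for RNA of 4 genes of G2 and M phase and carrying no more than a trace of Cd8 RNA. Most of them also held RNA of S phase genes, as given below, so the name stands for the rule and not for a measured phase. A barcode was a member when it had at least 500 genes, at least 1000 unique molecular identifiers (UMIs, 1 per captured RNA molecule) and at most 10% mitochondrial UMIs, together with at most 1 UMI of Cd8a and Cd8b1, none of Foxp3, and at least 4 UMIs in all of Ube2c, Ccnb1, Cdc20 and Plk1. This rule found 1239 members among the 14638 barcodes that passed the cell filter, of 16313 deposited. There were 675 members among 7137 filtered barcodes in the WT library and 564 among 7501 in the cKO library.

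Both libraries were single-cell 3′ RNA-seq of thymocytes that had been enriched with beads against CD25, the interleukin-2 receptor alpha chain encoded by Il2ra. The design has 1 library from WT mice and 1 from SETDBf/fCD4-Cre mice, here called cKO. In those mice a floxed SETDB gene is removed in cells where a Cre recombinase driven by Cd4 regulatory sequences has acted. SETDB proteins belong to the histone methyltransferases that mark lysine 9 of histone H3, and the label does not say which SETDB gene was floxed. The age of the mice and the number pooled per library were not given, and WT is not further described, so whether the WT mice carried floxed alleles or Cre is unknown. With 1 library per genotype no difference between genotypes could be tested. The 95% intervals below cover counting error only, treat UMIs as independent and are too narrow where a few cells hold most of a gene's UMIs; the cells of a library are not replicates.

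A dividing cell replicates its DNA in S phase, prepares for division in G2 and segregates its chromosomes in M phase. Cyclin B, encoded by Ccnb1, activates the kinase CDK1 to start mitosis. Plk1 is a kinase that drives spindle assembly and cytokinesis, Cdc20 activates the anaphase-promoting complex, and Ube2c is the ubiquitin-conjugating enzyme that works with that complex to destroy cyclin B. In the thymus, double-negative (DN) cells without CD4 and CD8 divide at an early stage marked by Kit, and again after a successful T cell receptor beta rearrangement, when the pre-T alpha chain encoded by Ptcra pairs with the beta chain. The alpha chain gene Trac is used mainly later, at the double-positive (DP) stage with both CD4 and CD8.

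The promoters of the 4 rule genes and of Cenpf, a centromere protein also used as a marker, are shown because genes that peak in G2 and M phase often share 2 short elements. The first is the cell cycle homology region, searched as TTTGAA or TTCGAA, and the second is the CCAAT box, searched as CCAAT, each on both strands. The windows run from 250 bases before to 50 bases after the RefSeq transcript start, in build GRCm38.p6, 5′ to 3′ on the strand of the gene, with every match in capitals.
Ube2c, chr2:164769679-164769978, plus strand: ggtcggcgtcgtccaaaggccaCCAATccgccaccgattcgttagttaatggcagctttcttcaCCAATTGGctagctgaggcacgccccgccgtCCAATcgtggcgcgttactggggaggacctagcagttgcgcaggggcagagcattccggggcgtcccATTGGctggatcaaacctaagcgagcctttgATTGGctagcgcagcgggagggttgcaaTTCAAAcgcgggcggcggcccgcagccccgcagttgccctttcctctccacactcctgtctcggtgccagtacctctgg
Ccnb1, chr13:100786437-100786736, minus strand: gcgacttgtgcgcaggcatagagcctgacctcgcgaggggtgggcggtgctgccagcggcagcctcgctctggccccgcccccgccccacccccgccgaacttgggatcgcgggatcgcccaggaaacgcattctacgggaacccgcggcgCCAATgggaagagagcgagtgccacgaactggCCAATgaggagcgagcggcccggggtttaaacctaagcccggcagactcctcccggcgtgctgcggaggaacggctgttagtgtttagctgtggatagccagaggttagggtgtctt
Cdc20, chr4:118437294-118437593, minus strand: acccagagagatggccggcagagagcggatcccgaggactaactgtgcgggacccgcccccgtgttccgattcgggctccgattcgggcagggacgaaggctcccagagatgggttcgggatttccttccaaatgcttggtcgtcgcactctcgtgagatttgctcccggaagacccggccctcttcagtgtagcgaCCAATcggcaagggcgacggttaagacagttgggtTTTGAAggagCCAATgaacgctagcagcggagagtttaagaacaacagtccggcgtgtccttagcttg
Plk1, chr7:122159185-122159484, plus strand: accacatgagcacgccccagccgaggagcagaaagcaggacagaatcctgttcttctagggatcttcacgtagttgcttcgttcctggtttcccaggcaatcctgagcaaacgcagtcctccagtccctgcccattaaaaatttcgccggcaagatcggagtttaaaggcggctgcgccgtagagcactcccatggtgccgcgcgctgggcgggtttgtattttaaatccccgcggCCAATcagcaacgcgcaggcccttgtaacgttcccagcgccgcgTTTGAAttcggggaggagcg
Cenpf, chr1:189688037-189688336, minus strand: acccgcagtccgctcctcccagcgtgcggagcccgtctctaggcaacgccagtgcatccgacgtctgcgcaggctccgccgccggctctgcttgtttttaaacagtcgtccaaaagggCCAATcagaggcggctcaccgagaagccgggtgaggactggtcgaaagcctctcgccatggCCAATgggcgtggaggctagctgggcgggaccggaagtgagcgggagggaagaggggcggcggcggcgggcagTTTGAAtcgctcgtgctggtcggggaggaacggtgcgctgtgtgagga

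A cell cycle homology match lay in the windows of Ube2c, Cdc20, Plk1 and Cenpf, and the window of Ccnb1 held none of those letters. The match began 29 bases before the start in Ube2c and 18 before it in Cdc20, and at base 3 after the start in Cenpf and 31 in Plk1. All 5 windows held CCAAT or its reverse ATTGG, from 1 match in Plk1 to 6 in Ube2c, where a pair on opposite strands overlapped. Among all 32851 RefSeq mouse windows, 19.2% held a cell cycle homology match, 37.4% a CCAAT match and 7.52% both. Among the 145 windows of 7 lists of mitosis genes, which leave out the 4 rule genes, 52.4% held the first, 61.4% the second and 37.9% both. In 28 windows of an S phase and replication list the shares were 10.7% and 67.9%. A match describes these letters and is not evidence of binding.

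The members were deeply covered cells, with medians of 31971 UMIs and 5217 genes per member in WT and 31043 UMIs and 5082.5 genes in cKO, against 7882 and 4854 UMIs over all filtered barcodes, and mitochondrial UMIs had a median of 3.01% and 2.76%. Members made up 24.6% of the filtered UMIs in WT and 23.9% in cKO. The libraries shared 16 barcode sequences, of which 4 were WT members and none were cKO members. A doublet caller at its own threshold marked 148 barcodes in WT and 1 in cKO, so no barcode was removed on it; the 5% of barcodes with the highest scores held 50 WT members (7.41%) and 26 cKO members (4.61%).

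The rule sum, the UMIs of the 4 rule genes in a member, had a median of 17 in WT and 18 in cKO and reached 175 and 156. It is a range and not a type. At its lower edge, 57 WT and 59 cKO members had a sum of exactly 4, while 92 and 56 barcodes of the same gate had a sum of 3 and stayed outside. A single Cd8 UMI was present in 117 WT and 103 cKO members, and 60 and 62 barcodes with 2 Cd8 UMIs stayed outside. All 4 rule genes were detected in 62.5% of WT and 61.2% of cKO members.

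Members were 9.46% of filtered barcodes in WT (95% Clopper-Pearson interval 8.79% to 10.2%) and 7.52% in cKO (6.93% to 8.14%), a cKO to WT ratio of 0.795 (exact interval 0.710 to 0.890). The ratio moved with the denominator and the depth. Of the barcodes with at most 1 Cd8 UMI and no Foxp3 UMI, the share was 17.7% among 3823 WT and 18.03% among 3128 cKO barcodes, and its ratio was 1.02 (0.912 to 1.14). When every barcode was thinned to 4000 UMIs, which left out 2337 shallower WT and 3482 shallower cKO barcodes, the shares were 8.79% and 8.58%, a ratio of 0.976 (0.844 to 1.13). Both of these intervals include 1.

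The cell cycle genes of the members were set beside those of 3 comparators taken from the same libraries. Resting cells of the same gate had no UMI of the rule genes, Mki67 or Top2a (1739 WT and 1432 cKO barcodes). S phase cells of the same gate had at most 1 UMI of the rule genes and at least 8 UMIs of Pcna, Mcm5, Mcm6, Cdc6, Ccne2 and Uhrf1 (792 and 679). Dividing Cd8-positive cells had at least 4 UMIs of the rule genes, no Foxp3 and at least 4 Cd8 UMIs (345 and 280). Because the rule and the comparators were drawn with cell cycle genes, these contrasts describe the choice and are no test. Levels are CPM, UMIs of the summed cells scaled to a common total; the assay tags each transcript once at its 3′ end, so levels were compared between cells and not between genes.

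Ube2c stood at 674.6 CPM in WT members (95% Poisson interval 663.7 to 685.6) and 633.1 CPM in cKO members (621.5 to 644.9), against 5.46 and 5.33 in S phase cells. A member carried a median of 9 Ube2c UMIs in both libraries, with an upper quartile of 32.5 and 33. Ccnb1 was at 157.8 and 158.9 CPM, Cdc20 at 190.9 and 203.6 CPM, and Plk1 at 108.2 and 96.9 CPM. Cenpf, which the rule did not use, was at 235.1 CPM in the WT members and 206.4 CPM in the cKO members, against 12.4 and 10.3 in S phase and 6.11 and 6.75 in resting cells. It was detected in 86.1% and 80.0% of members. The fifth marker stood above resting and S phase cells in both libraries. Both comparators were cut to none or at most 1 UMI of the rule genes, so this is no test of the G2 and M phase label.

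The 7 mitosis lists together held 157 genes, and 113 of them were at least 2-fold higher in members than in resting cells in both libraries, where 5.18% of all 9544 measured genes were. None was 2-fold lower, where 5.49% of all genes were. On that lower side stood 21 of 43 interferon-stimulated genes, 15 of 18 TCR and agonist signalling genes, 12 of 27 DN3, pre-TCR and Notch genes and 11 of 13 Treg genes. The resting cells were not matched to the members by stage. Their mature T cell markers summed to 479.7 and 574.2 CPM, against 208.4 and 260.3 CPM in members. Stage makeup and cell cycle phase cannot be told apart in this contrast. Against S phase cells 93 of the 157 were at least 2-fold higher in both libraries, with 2.02% of all genes doing so. On the lower side of that contrast, with 0.409% of all genes, were 5 of 27 DN3, pre-TCR and Notch genes. Apart from the rule genes, the genes with the highest ratio to resting cells were Top2a, Mki67, Pclaf, Birc5, Nusap1, Cdk1, Cdca8, Ccna2, Tpx2 and Kif11. Top2a and Mki67 lead because resting cells were chosen to lack them.

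Among the G2 cyclins and CDK1 regulators, 11 of 12 were 2-fold above resting cells. Ccna2, cyclin A, was at 190.9 CPM in the WT members and 191.9 CPM in the cKO members and at 16.6 and 18.5 CPM in S phase cells. Cdk1 itself was at 240.7 and 225.9 CPM against 34.2 and 32.9. Cks2, a small CDK-binding subunit, was at 545.0 and 568.5 CPM against 111.2 and 123.7. All 17 genes of the mitotic kinase and chromosomal passenger list were 2-fold above resting cells, among them Birc5 (survivin) at 442.1 and 440.1 CPM and Cdca8 (borealin) at 302.2 and 295.3 CPM, both subunits of the passenger complex. Of 34 kinesin, spindle and cytokinesis genes, 33 were 2-fold above both resting and S phase cells. Kif11, the spindle motor that separates the poles, was at 188.5 and 184.4 CPM against 17.5 and 18.03 in S phase, and Nusap1, a spindle-associated protein, at 226.5 and 242.4 CPM against 9.54 and 9.23.

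Spindle checkpoint and kinetochore genes were divided, with 23 of 30 at least 2-fold above resting cells. Cenpa, the centromeric histone H3 variant, was at 245.7 and 262.7 CPM in members and 26.9 and 19.4 CPM in S phase cells. Bub3, a checkpoint protein, was at 281.0 and 286.2 CPM against 126.3 and 130.8. The anaphase-promoting complex list stood apart, since 4 of its 19 genes passed 2-fold. Anapc5, a core subunit, was at 320.0 and 302.6 CPM in members and 172.5 and 179.0 CPM in resting cells, while Fbxo5, an inhibitor of the complex, was at 139.6 and 136.6 CPM against 5.22 and 7.71. Of 20 DREAM, B-Myb and FoxM1 regulators, the factors that switch these promoters, 8 passed. In that list Rbbp4 was at 340.6 and 342.8 CPM against 188.8 and 186.4 in resting cells. Condensin, cohesin and chromosome structure genes passed in 17 of 25, with Hmgb2, a chromatin protein, at 3497 and 3740 CPM against 526.5 and 599.0.

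**Figure D1:**
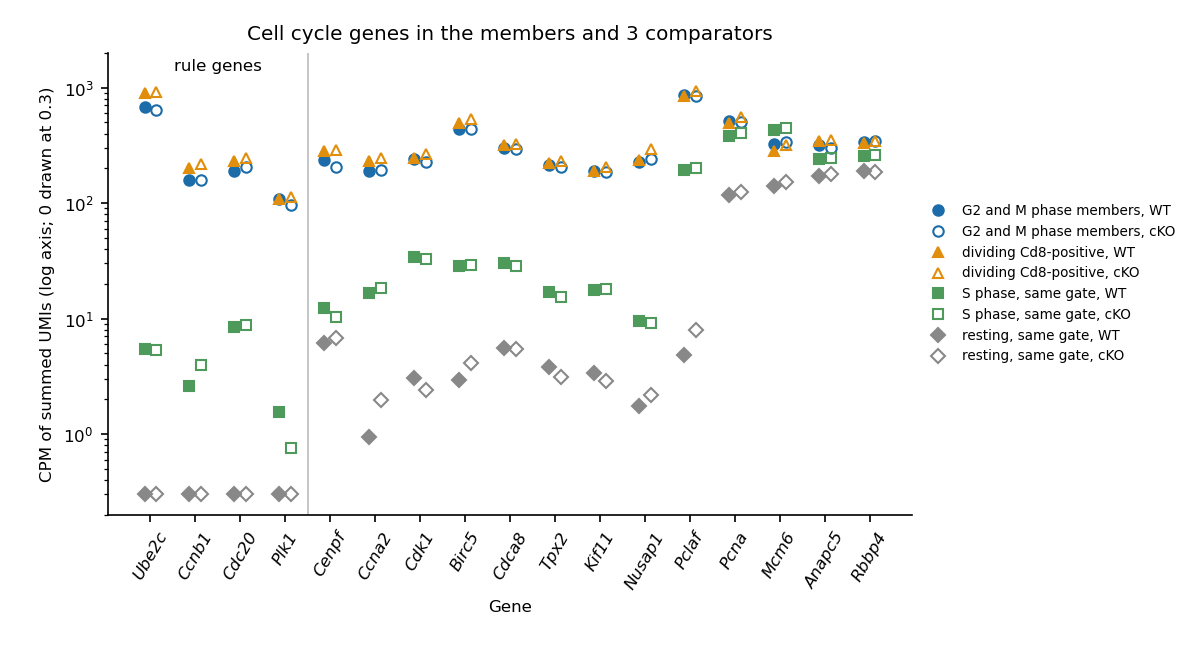
Level of 17 genes in CPM of summed UMIs (log axis) in the members and the 3 comparators, filled for WT and open for cKO; the 4 rule genes stand left of the line, and values of 0 are drawn at 0.3. Members and dividing Cd8-positive cells lie close together, S phase and resting cells lie lower for the G2 and M phase genes, and Pcna, Mcm6, Anapc5 and Rbbp4 differ less.

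S phase transcripts were still abundant in the members. The 33 genes of the S phase and replication list summed to 5816 and 5716 CPM in members and 4800 and 4823 CPM in S phase cells. At least 8 UMIs of the 6 S phase genes were present in 630 WT members (93.3%) and 513 cKO members (90.96%). Among members with a rule sum of 4 to 7 the shares were 93.1% and 96.6%, and at 16 or more 93.4% and 87.3%. Pcna, the replication clamp, was at 509.1 and 503.0 CPM in members and 383.5 and 406.1 CPM in S phase cells. Mcm6, a subunit of the replicative helicase, was at 326.1 and 338.6 CPM against 430.3 and 446.1. Replication-dependent histone genes, detected here by 3′ counting of RNAs that largely lack a poly(A) tail, summed to 4419 and 4083 CPM in members and 1290 and 1161 CPM in S phase cells. In resting cells they summed to 960.2 and 834.6 CPM, not far below the S phase cells. The S phase set was cut to at most 1 UMI of the rule genes and need not cover all of S phase. Its name stands for that cut, here and in the contrasts above. Of 35 measured histone genes, 23 were 2-fold above S phase cells in both libraries. Hist1h2ap was at 2021 and 1661 CPM against 596.6 and 479.7; histone genes are near-identical copies, so the split among them is uncertain.

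Within the members, a higher sum of the rule genes went with a lower CPM of the S phase genes. CPM is a share of all UMIs, so a lower CPM need not mean fewer S phase UMIs per member. The 33 genes of the S phase and replication list summed to 7627 CPM in WT and 7334 CPM in cKO members with a rule sum of 4 to 7, to 7022 and 7084 CPM at 8 to 15, and to 4785 and 4719 CPM at 16 or more. Ccne2, a cyclin of S phase entry, went from 47.0 and 41.6 CPM in the lowest range to 10.1 and 10.6 CPM in the highest. Over the same ranges the 157 mitosis genes summed to 21386 and 21055, 24286 and 24122, and 32767 and 32543 CPM. The ranges were cut on G2 and M phase genes, so this rise describes the cut and is no test. Hmmr, a spindle-associated protein, was at 28.0 and 31.0 CPM in the lowest range and 182.6 and 162.1 in the highest, and Cdc25b, a phosphatase that activates CDK1, at 13.04 and 9.56 against 54.9 and 58.8. Depth moved with the ranges, with median UMIs per member of 25955 and 25578 in the lowest range and 36150 and 33821 in the highest; its part in the order of the levels was not tested.

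**Figure D2:**
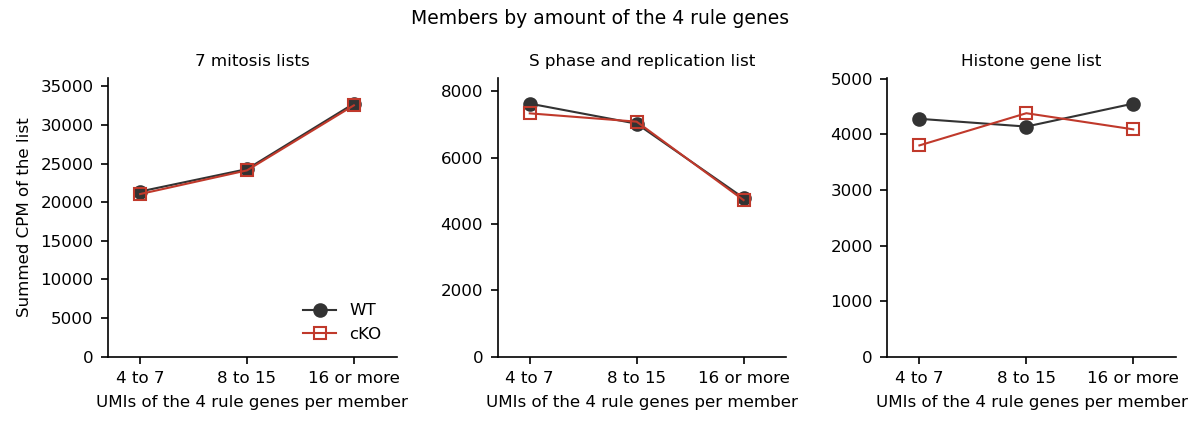
Summed CPM of the 7 mitosis lists, the S phase and replication list and the histone list in members grouped by their UMIs of the 4 rule genes, WT in filled circles and cKO in open squares, with each axis starting at 0. The mitosis lists are highest and the S phase list lowest at 16 or more UMIs, while the histone list stays between 3803 and 4556 CPM.

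Ptcra, Kit and Trac were each present in part of the members. Ptcra was detected in 364 WT members (53.9%) and 285 cKO members (50.5%), with at most 22 and 21 UMIs in a member, and stood at 65.6 and 52.6 CPM. Kit, the stem cell factor receptor, was detected in 163 (24.1%) and 151 (26.8%) members and stood at 12.2 and 17.3 CPM. Trac was detected in 127 (18.8%) and 108 (19.1%) members and stood at 14.0 and 18.8 CPM. None of the 3 genes was detected in 166 WT and 143 cKO members. Cd4 was detected in 1.78% and 3.55%, and Il2ra, the target of the bead enrichment, in 75.3% and 76.2%.

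These shares depend on the depth of the members. After thinning each member to 4000 UMIs, which 673 WT and 560 cKO members reached, Ptcra was detected in 17.98% and 14.3%, Kit in 5.05% and 5.54%, and Trac in 2.82% and 5.89%. Thymic B cells, taken as barcodes with at least 2 Cd79a UMIs, were used as a rough background of free RNA. This set includes 4 WT members, and a UMI in it need not be free RNA. Of 37 such barcodes in WT (median 5357 UMIs), 3 held a Ptcra UMI, 1 a Kit UMI and none a Trac UMI. The Clopper-Pearson limit for Trac there is 9.49%. Of 19 in cKO (median 6098 UMIs), none held Ptcra (limit 17.6%), 4 held Kit and 2 held Trac. Thinned to 4000 UMIs, 1 of 20 WT and 0 of 16 cKO background barcodes held Ptcra, with Clopper-Pearson limits of up to 24.9% and 20.6%. The thinned Ptcra, Kit and Trac shares of the members all lay within what these few barcodes allow. Those limits are so wide that the comparison cannot decide whether a single UMI in a member is expression or free RNA. Unthinned, 103 WT and 65 cKO members held at least 5 Ptcra UMIs, and 11 and 16 held at least 5 Trac UMIs. The cKO to WT ratio of the thinned Trac share was 2.09 (1.15 to 3.89) at 4000 UMIs, 1.33 (0.822 to 2.16) at 8000 UMIs and 1.02 (0.780 to 1.33) unthinned, so no direction was read from it. Cd8-positive barcodes thinned to 4000 UMIs held Trac in 33.6% and 43.3%.

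Stage genes differed between the members, the resting cells of the gate and the dividing Cd8-positive cells. Ptcra was at 272.2 and 196.8 CPM in resting cells, 65.6 and 52.6 CPM in members and 98.6 and 84.8 CPM in dividing Cd8-positive cells. Il2ra was at 472.9 and 417.6 CPM in resting cells, 147.9 and 167.6 CPM in members and 37.0 and 34.5 CPM in dividing Cd8-positive cells. Notch1, the receptor that commits thymocytes to the T lineage, was at 443.6 and 368.4 CPM in resting cells and 182.2 and 170.3 CPM in members. Rag1, the recombinase that rearranges receptor genes, was at 254.6 and 188.1 CPM in resting cells, 43.7 and 35.6 CPM in members and 112.0 and 115.6 CPM in dividing Cd8-positive cells. Trgc1, a T cell receptor gamma constant gene, was at 291.1 and 315.7 CPM in members and 79.4 and 79.8 CPM in dividing Cd8-positive cells. No gene of the 157 in the mitosis lists differed 2-fold between members and dividing Cd8-positive cells in both libraries, where 0.639% of all genes were higher and 0.262% lower. The early progenitor list held 5 of 12 measured genes 2-fold higher in members than in dividing Cd8-positive cells, and the V(D)J recombination and DP list 6 of 17 that were 2-fold lower.

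Members were then divided in this order by stage genes: at least 2 UMIs of Kit and Cpa3, else any Cd4 UMI, else at least 5 Ptcra UMIs, else the remainder. Cpa3 encodes a carboxypeptidase of early progenitors and mast cells. The first bin held 167 WT members (24.7%, 21.5% to 28.2%) and 183 cKO members (32.4%, 28.6% to 36.5%), a ratio of 1.31 (1.06 to 1.63). The Cd4 bin held 11 and 17 members. The Ptcra bin held 92 WT members (13.6%) and 48 cKO members (8.51%), a ratio of 0.624 (0.431 to 0.895). The remainder held 405 (60%) and 316 (56.0%). After thinning to 4000 UMIs the ratio for the Kit or Cpa3 bin was 1.71 (1.17 to 2.50), while the Ptcra bin kept 1 member in each library. At 8000 UMIs the Ptcra bin held 16 and 7 members, a ratio of 0.523 (0.182 to 1.34), and among members with no Cd8 UMI the Kit or Cpa3 ratio was 1.24 (0.991 to 1.56). Both of those intervals include 1.

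The bins differed in genes they were not built on. Gzma, granzyme A, was at 278.7 and 252.7 CPM in the Kit or Cpa3 bin and 844.8 and 702.7 CPM in the remainder. Trgc1 was at 625.1 and 603.7 CPM in the Kit or Cpa3 bin and 204.0 and 200.5 CPM in the remainder. The early transcription factor genes Lyl1 and Hhex were at 42.1 and 38.4 CPM and at 18.7 and 24.95 CPM in the Kit or Cpa3 bin, and both were under 1 CPM in the remainder. The Ptcra bin held Rag1 at 124.6 and 112.2 CPM and Notch3 at 48.4 and 36.5 CPM, against 34.0 and 29.6 CPM and 13.7 and 13.8 CPM in the remainder. Trac was at 133.1 and 277.4 CPM in the small Cd4 bin and at most 15.6 CPM in the others. MYC target, nucleolus and ribosome assembly genes summed to 9896 and 9274 CPM in the Kit or Cpa3 bin and 14740 and 14592 CPM in the remainder, and glycolysis genes to 4208 and 4313 against 5999 and 6006. The 7 mitosis lists summed to 32252 and 31214 CPM in the Kit or Cpa3 bin and 27441 and 26890 CPM in the remainder.

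**Figure D3:**
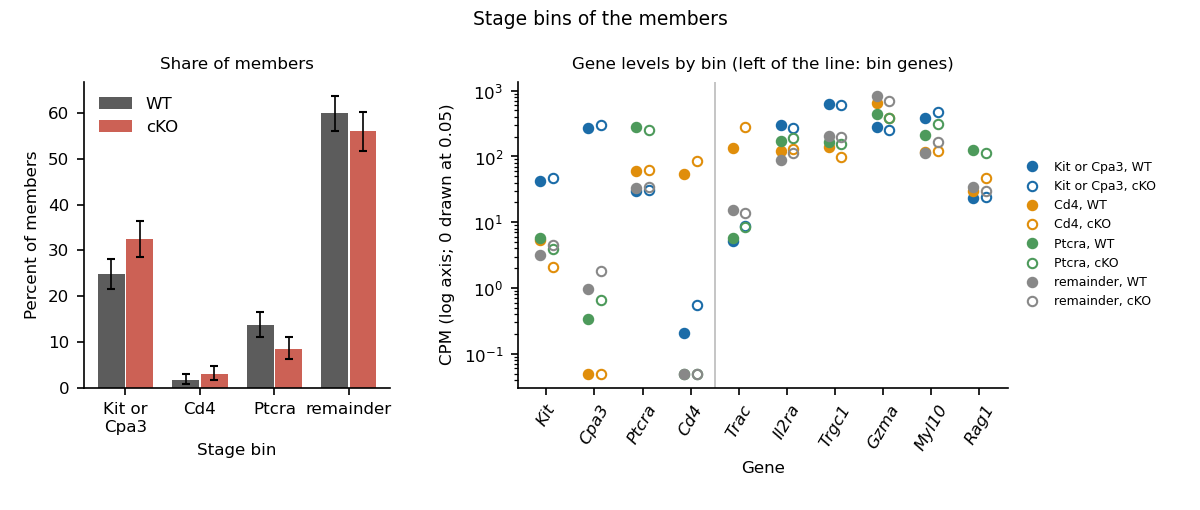
Left, percent of members in each stage bin with 95% Clopper-Pearson intervals, WT in grey and cKO in red; right, CPM (log axis) of the bin genes and 6 other genes in each bin, filled for WT and open for cKO, with values of 0 drawn at 0.05. Before thinning the Kit or Cpa3 bin holds 32.4% of cKO against 24.7% of WT members and the Ptcra bin 8.51% against 13.6%, and the bins differ in Il2ra, Trgc1, Gzma and Rag1.

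Markers of B, myeloid, erythroid and stromal cells were at low levels with a few exceptions. Hba-a1, Col1a2, Col3a1 and Krt5 were at 0 in both libraries, and C1qa and Ms4a1 at no more than 2 UMIs. The 5 defining B cell markers summed to 209.9 CPM in WT and 167.5 CPM in cKO members, of which Ighm gave 185.6 and 147.0; the 5 myeloid markers summed to 138.6 and 149.97 CPM, of which Cst3 gave 122.3 and 129.1. Resting cells of the gate held 316.6 and 225.7 CPM of the B cell markers and 431.6 and 563.5 CPM of the myeloid markers. The 4 gamma-delta T cell markers were not low, at 569.1 and 579.0 CPM in members and 959.6 and 894.5 CPM in resting cells. Among them Trdc, the T cell receptor delta constant gene, was detected in 90.1% and 88.7% of members. The 4 mature T cell markers summed to 208.4 and 260.3 CPM in members and 479.7 and 574.2 CPM in resting cells. Over the longer lists, the 14 B cell genes summed to 950.1 and 944.6 CPM with 0 and 5 genes at 0, the 22 myeloid and dendritic genes to 283.9 and 255.8 CPM with 4 and 5 at 0, and the 16 erythroid, stromal and epithelial genes to 99.996 and 93.5 CPM with 9 and 9 at 0. Ly6d alone, a gene of early lymphoid cells, gave 724.0 and 771.2 CPM of the B cell list.

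The genotype comparison begins with the genes named by the deletion. Setdb1 was at 33.0 CPM in WT members (30.6 to 35.5) and 29.0 CPM in cKO members (26.6 to 31.6), and Setdb2 at 5.81 and 5.47 CPM. A 3′ tag lies outside the exons removed by typical floxed alleles, the deleted exons were not given, and these values therefore check neither the label nor the deletion. Cd4, whose regulatory sequences drive the Cre, was detected in 1.78% of WT and 3.55% of cKO members. Whether the gene had been removed in most cKO members is therefore unknown, and cKO below names the library and not a deleted state of each cell. Partners of SETDB1 were also less than 1.5-fold apart, with Atf7ip at 53.9 and 47.6 CPM and Resf1 at 48.9 and 62.4 CPM. Of 24 measured H3K9 methylation, TRIM28 and HUSH genes none reached 1.5-fold, and their median log2 fold was -0.09.

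Genotype folds are log2 ratios of cKO over WT of CPM plus 5, which understates the change of low genes, for the 9544 genes with at least 100 UMIs over both sets of members. Their median was -0.02, with 4144 genes above 0 and 5400 below, which is the background for the counts of genes above or below 0 given for lists. At least 1.5-fold higher in cKO were 30 genes (0.314%), and at least 1.5-fold lower were 29 (0.304%). Fewer cells of a stage and less RNA per cell cannot be told apart in these sums, and the stage bins above differ between the libraries, so each named gene was also read within the bins.

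The mitosis genes were close to equal in the 2 genotypes. Of 157 genes in the 7 mitosis lists none was 1.5-fold higher in cKO and 1 was 1.5-fold lower, with a median of -0.02 and 64 genes above 0. That gene was Ube2s, the enzyme that extends ubiquitin chains on substrates of the anaphase-promoting complex, at 32.7 CPM in WT (30.3 to 35.2) and 20.1 CPM in cKO (18.1 to 22.3), log2 fold -0.59. It sat at the threshold and was below it in several other settings. Cenpf had a log2 fold of -0.18, Mki67, a proliferation marker, -0.22, and Incenp, the scaffold of the passenger complex, -0.20. The medians of the 7 lists lay between -0.05 for the anaphase-promoting complex and 0.02 for the DREAM, B-Myb and FoxM1 list. None of 33 S phase and replication genes and none of 35 histone genes reached 1.5-fold, with medians of -0.02 and 0.04.

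Among the 24 genes named by the largest folds, 4 rested on 1 member. Gzmc, granzyme C, had 295 UMIs in cKO and none in WT members, which is at least 118.9-fold higher when 3 UMIs over all WT members are taken as the floor, but 282 of the 295 lay in 1 cell. The class II antigen presentation genes Cd74, H2-Aa and H2-Eb1 had log2 folds of -2.13, -1.68 and -1.60, and 519 of 578 Cd74 UMIs in WT lay in 1 member. Without that highest cell the folds were 0.20 for Gzmc and -0.21 for Cd74. S100a4, Ifitm1 and Fcer1g, at log2 folds of 1.37, 0.96 and 0.92, were detected in 3.11% to 5.33% of WT and 6.38% to 9.75% of cKO members, and in the remainder bin all 3 were under 1 CPM in both libraries.

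Of the other genes higher in cKO, Ssbp4, H2-Q7, Tsc22d3 and Zfp36l2 were detected in most cKO members (76.6% to 98.9%). Ssbp4, a single-stranded DNA-binding family protein, was at 30.9 CPM in WT (28.6 to 33.3) and 115.1 CPM in cKO (110.1 to 120.1), log2 fold 1.74. It was detected in 61.2% of WT and 93.4% of cKO members, with medians of 1 and 3 UMIs. H2-Q7, a non-classical class I gene, was at 51.2 and 153.1 CPM, log2 fold 1.49, and was detected in 36.6% and 76.6% of members. H2-Q6 followed at 6.96 and 19.1 CPM, log2 fold 1.01; the H2-Q genes are close paralogs whose reads may be split uncertainly. Tsc22d3, the glucocorticoid-induced leucine zipper, was at 38.8 and 90.5 CPM, log2 fold 1.12. Zfp36l2, an RNA-binding protein that promotes mRNA decay, was at 543.6 and 1016 CPM, log2 fold 0.90, with medians of 16 and 31 UMIs per member. Ddit4, an inhibitor of mTORC1, was at 5.44 and 15.6 CPM and had a fold of 0.98. Klf2, a transcription factor of quiescence and egress, was at 18.2 and 40.7 CPM (0.98), and Gpr65, a proton-sensing receptor, at 16.6 and 33.6 CPM (0.84). The fold of Klf2 was 0.56, 1.01 and 0.59 in the Kit or Cpa3, Ptcra and remainder bins.

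Genes lower in cKO were led by the interferon-stimulated genes, a programme that cells switch on after interferon binds its receptor. Of 43 measured genes of that list 10 were at least 1.5-fold lower in cKO and none was higher, with a median log2 fold of -0.32 and 36 genes below 0. Over all 9544 genes 5400 were below 0. Isg15, a ubiquitin-like modifier, was at 77.4 CPM in WT (73.8 to 81.2) and 25.5 CPM in cKO (23.2 to 27.9), log2 fold -1.44, and was detected in 56.4% and 39.2% of members. Ifi27, a mitochondrial protein gene of the same programme, was at 190.3 and 92.6 CPM, a ratio of 0.487 (0.460 to 0.515), with medians of 5 and 2 UMIs per member. Rtp4 was at 42.7 and 19.2 CPM (-0.98), and Irf7, the transcription factor that amplifies the response, at 15.3 and 6.02 CPM (-0.88). Usp18, which removes ISG15 from proteins, was at 14.0 and 5.24 CPM (-0.89) and Ifit1, a sensor of foreign RNA, at 7.15 and 1.51 CPM (-0.90). In the list 7 genes lay above 0; Tap1 and Psmb9, which supply peptides to class I molecules, had folds of 0.24 and 0.21.

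The heat shock and dissociation stress list was divided, with 8 of its 17 measured genes below 0 and 9 above. The 8 below 0 were its measured chaperone genes, and the 9 above 0 were immediate early and stress response genes such as Fos, Jun and Dusp1, at 0.35, 0.24 and 0.30. Hsph1, a chaperone of the HSP110 family, was at 131.4 CPM in WT (126.6 to 136.3) and 61.0 CPM in cKO (57.5 to 64.7), log2 fold -1.05, and Hspa1b, an inducible HSP70, at 6.23 and 0.781 CPM (-0.96). Hspa1a and Hspa1b are near-identical, so their reads are uncertain. Hspa8, the constitutive HSP70, was at 4044 and 2657 CPM (-0.61). These 3 of the 17 genes were 1.5-fold lower in cKO and none was higher; the median was 0.05 while the list summed to 14102 and 11113 CPM, so its sum and its median differ in sign. Its medians in the Kit or Cpa3, Ptcra and remainder bins were -0.01, -0.18 and -0.17. Fos, an immediate early gene, was at 96.4 and 123.9 CPM. Igf2bp3, a fetal RNA-binding protein, was at 20.7 and 8.70 CPM, log2 fold -0.91.

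**Figure D4:**
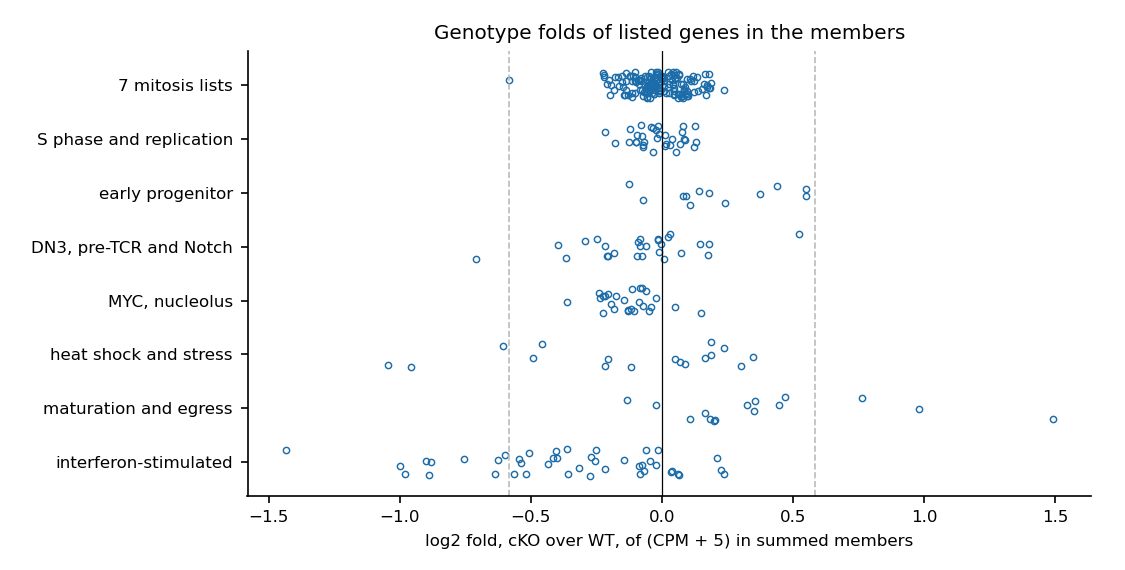
Log2 fold of cKO over WT for the measured genes of 8 groups of lists in the summed members, 1 point per gene with vertical scatter for legibility, and dashed lines at 1.5-fold. The mitosis genes gather around 0 with Ube2s at the lower line, and most interferon-stimulated genes lie left of 0.

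Developmental lists had small median folds. Early progenitor genes had a median log2 fold of 0.16 with 10 of 12 above 0, none of them 1.5-fold; Cpa3 was at 60.6 and 91.02 CPM (0.55). The list's median was 0.13 in the Kit or Cpa3 bin, with 8 of 12 above 0, and -0.12 in the remainder bin, which holds few Kit or Cpa3 UMIs by its definition and where 6 of the genes were measured. The DN3, pre-TCR and Notch list had a median of -0.08 and 1 of 27 genes 1.5-fold lower, Id3, an inhibitor of E proteins, at 60.1 and 34.8 CPM (-0.71). The median of that list was -0.06, -0.07 and -0.04 in the Kit or Cpa3, Ptcra and remainder bins. Myl10, in the same list, was at 187.4 and 271.1 CPM (0.52). Ptcra had a fold of -0.29 over all members; it was not read within the bins, which are cut on its own UMIs. Bcl11b, a T lineage commitment factor, was at 398.9 and 335.0 CPM (-0.25), and Dntt, terminal transferase, at 905.2 and 782.3 CPM (-0.21). None of 17 measured V(D)J recombination and DP genes was 1.5-fold apart, with a median of -0.10.

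Maturation and egress genes had a median of 0.33 with 13 of 15 above 0 and 3 at least 1.5-fold higher, H2-Q7, Klf2 and Cd52, the last at 53.6 and 94.4 CPM (0.76). Within the bins that median was 0.17 (Kit or Cpa3), 0.51 (Ptcra, 7 genes measured) and 0.10 (remainder), with 1, 2 and 2 genes 1.5-fold higher, and Klf2 had 0.56, below 1.5-fold, in the Kit or Cpa3 bin. Of 18 measured TCR and agonist signalling genes 1 was 1.5-fold higher, the early activation marker Cd69 at 41.4 and 76.2 CPM (0.81), with a median of 0.02; in the remainder bin none was, 4 of 13 were above 0 and the median was -0.16. Of 13 measured Treg genes 2 were higher, the cytokine signalling inhibitor Cish (4.01 and 9.70 CPM) and the actin-capping gene Capg (9.22 and 18.1 CPM), with a median of 0.09, and in the remainder bin none of 7 was. Of 14 gamma-delta and innate-like genes Fcer1g was higher, with a median of 0.12. In the remainder bin that list had 0 of 9 measured genes above 0 and a median of -0.14. The MYC target, nucleolus and ribosome assembly list had 24 of 26 genes below 0 and none 1.5-fold apart, with a median of -0.12, and Rrp9, a ribosome assembly factor, at 68.4 and 52.1 CPM. The medians of that list in the Kit or Cpa3, Ptcra and remainder bins were -0.18, -0.19 and -0.05. In those bins 22 of 26, 21 of 23 and 20 of 25 measured genes were below 0. Within the remainder bin the sum of that list had a ratio of 0.990, and within the Kit or Cpa3 bin 0.937.

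The remaining lists were near 0. Glycolysis had a median of -0.02 with none of 19 genes 1.5-fold apart, cholesterol synthesis -0.07 with none of 21, p53 targets -0.05 with none of 9, and the BCL2 family 0.01 with none of 8. CDK inhibitors, D cyclins and G1 genes had a median of 0.02 and 1 of 16 higher, Klf2. Nutrient transporters had -0.04 and 1 of 14 higher, the peptide transporter Slc15a2 at 2.398 and 6.92 CPM. The unfolded protein and ATF4 response list had -0.06 and 1 of 16 higher, Ddit4. The marker lists of B cells, of myeloid and dendritic cells and of erythroid, stromal and epithelial cells had medians of -0.01, -0.01 and -0.06, with 1 of 5, 3 of 11 and 0 of 3 genes lower and 0, 1 and 0 higher; the lower ones were Igkc, Cd74, H2-Aa and H2-Ab1 and the higher one Fcer1g.

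A further 2 lists were taken from an earlier analysis of these same libraries and are not independent evidence of a direction. Of genes reported there as higher in cKO Treg-like cells, 7 were measured in the members and none was 1.5-fold apart, with a median of 0.08. They were Resf1, Trim24, Zfp52, Ddt, Gstt2, Acadm and Atf7ip, from 0.32 for Resf1 down to -0.16 for Atf7ip. Of those reported as higher in cKO DP-like or precursor-like cells, 11 were measured and 5 were at least 1.5-fold higher, Ssbp4, Tsc22d3, Ddit4, Zfp36l2 and Slc15a2, with a median of 0.35. The others were Pik3ip1, Mbnl1, Pdk1 and Gsta4, at 0.35, 0.29, 0.25 and 0.19, and Tmem131l and Slc16a6, at -0.13 and -0.19. Among unnamed gene models, Gm42047 was at 32.1 and 11.5 CPM (-1.17), Gm49169 at 4.80 and 1.56 CPM and B930036N10Rik at 17.0 and 9.76 CPM, while Gm26532 was at 5.81 and 12.05 CPM (0.66), Gm22146 at 15.8 and 27.3 CPM and 4931406C07Rik at 3.32 and 6.53 CPM.

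Set beside the comparators of the same libraries, 11 of the 24 named genes passed 1.5-fold in the same direction in members and in S phase, resting and dividing Cd8-positive cells alike. Ssbp4 had log2 folds of 1.74, 1.39, 1.18 and 1.62 in that order, Tsc22d3 1.12, 0.94, 1.099 and 1.11, and H2-Q7 1.49, 1.32, 1.21 and 1.28. Isg15 had -1.44, -1.41, -1.47 and -1.03, and Hsph1 -1.05, -1.04, -0.87 and -0.96. The interferon-stimulated list had medians of -0.32, -0.41, -0.37 and -0.40, with 10 of 43, 12 of 43, 13 of 46 and 8 of 36 measured genes 1.5-fold lower and none higher. Over all genes 0.398% were 1.5-fold lower in S phase, 0.633% in resting and 0.269% in dividing Cd8-positive cells, and 0.258%, 0.633% and 0.175% were higher. Other named genes had unequal folds: Ifitm1 had 0.96 in members and -0.08, -0.48 and -0.09 in the others, and Klf2 0.98 against 0.15, 0.56 and 0.66. Whether a fold in the members differs from that in another population was not tested. Within the Kit or Cpa3, Ptcra and remainder bins 14 of the 24 named genes passed 1.5-fold in the same direction in all 3, Ssbp4 at 1.72, 1.79 and 1.78 and Isg15 at -1.42, -1.32 and -1.46. Interferon-stimulated genes were 1.5-fold lower in 13 of 37, 7 of 24 and 10 of 37 measured cases in those bins, where 0.739%, 1.11% and 0.323% of all genes were lower and 0.343%, 0.755% and 0.139% higher.

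**Figure D5:**
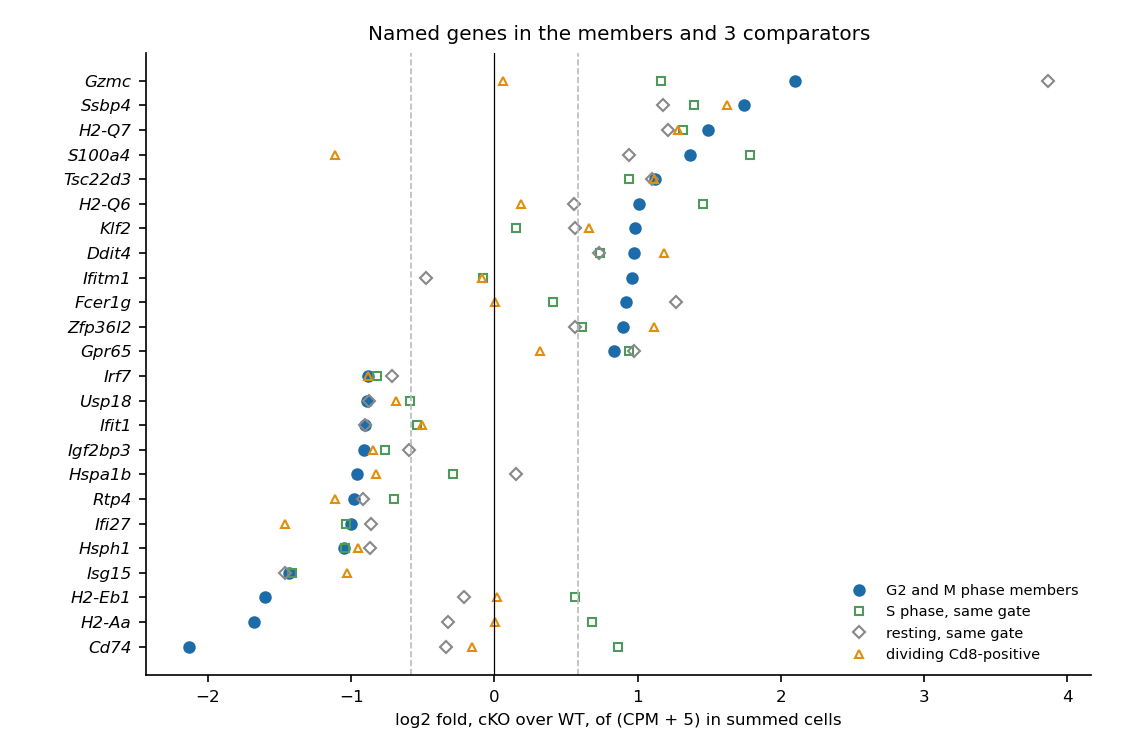
Log2 fold of cKO over WT for the 24 named genes in the members (filled) and in S phase, resting and dividing Cd8-positive cells (open), with dashed lines at 1.5-fold. Ssbp4, H2-Q7, Tsc22d3, Isg15, Ifi27 and Hsph1 lie on the same side past 1.5-fold in all 4 populations, while Gzmc, Cd74, H2-Aa, H2-Eb1 and S100a4 scatter.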

How the data were processed

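The authors deposited raw UMI counts per gene and barcode for each library, made with Cell Ranger 6.1.1 per the file headers; CASAVA 1.8 and Seurat 4.0.3 stand in the submitters' processing notes, with the genome build not given in the sources used here. No count was removed or rescaled before summing. The cell filter, rule and comparators are those in the text. UMIs were summed over the cells of each library and given as CPM with exact Poisson intervals; ratios have exact conditional binomial intervals and shares Clopper-Pearson intervals, at 95%. Each library is 1 sample, so no test was run. Thinning drew UMIs without replacement. Doublet scores came from scrublet in scanpy 1.11.5 (expected rate 0.06); the sums were tested on simulated data. Counts were handled with Python 3.11.15, numpy 2.4.6 and scipy 1.17.1.

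The 32 gene lists and the members were chosen with earlier results of these data known. Older symbols were matched through GENCODE vM21 identifiers, and 3 of 696 listed symbols had no row. Named genes are the 12 highest and the 12 lowest folds whose interval excludes 1, leaving out receptor segment, mitochondrial, sex-linked, unnamed and rule genes; the Ptcra, Kit, Trac, Cd4, Il2ra, SETDB partner, marker and earlier-analysis genes; per list those of largest fold or, for cell cycle lists, most UMIs; the 10 genes highest over resting cells; and 3 unnamed models each way. Genes named outside this rule (stage genes in the bins, the rule sum ranges, markers of other cells and interferon-stimulated genes above 0) were chosen after their values were seen. Promoter windows are from RefSeq tables, matched by symbol. Alternatives changed the pseudocount, scaling, UMI minimum, cell filter, rule thresholds, doublets and depth.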

Additional observations from a re-analysis of the deposited data

Results flagged for a closer look

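In 3 genes the genotype fold pointed the opposite way, past 1.5-fold, in the members and in another population of the same libraries; with 1 library per genotype the differences were not tested. Cd74 had a log2 fold of -2.13 in the members and 0.87 in S phase cells of the same gate, where its level was 44.7 CPM (WT) and 85.6 CPM (cKO). H2-Aa had -1.68 in the members and 0.68 in S phase cells, at 13.5 and 24.7 CPM there. In the members, 1 WT cell held 519 of the 578 Cd74 UMIs and 272 of the 297 H2-Aa UMIs of that library. S100a4, a calcium-binding protein gene, had 1.37 in the members and -1.11 in dividing Cd8-positive cells, where it stood at 6.53 and 0.326 CPM. Its UMIs in the dividing Cd8-positive cells of both libraries together were below the UMI minimum used for measured genes. The cKO level there rests on few UMIs, so the S100a4 fold in those cells gives no firm direction.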

How the results depend on the processing

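No paired analysis was possible because each genotype has 1 library. The share of members had a cKO to WT ratio of 0.976 and 0.965 with every barcode thinned to 4000 and 2000 UMIs and 1.02 within the gate. With changed cell filters, rule sums, no Cd8 UMI or no high doublet scores it lay between 0.744 (rule sum at least 2) and 0.853 (stricter cell filter). Each of those intervals lay below 1. Without the highest doublet scores the thinned ratios were 1.02 for Ptcra and 0.851 for Kit. For Trac the ratios were 1.02 unthinned and 0.973 with no Cd8 UMI. At 4000 UMIs the bin ratios were 1.71 for Kit or Cpa3 and 1.20 for Ptcra. The last comes from 1 member in each library (interval 0.0153 to 94.3) and gives no direction. Genes 1.5-fold higher and lower in cKO numbered 70 and 63 with a pseudocount of 1 CPM, 11 and 10 with 20 CPM, and 128 and 140 in members thinned to 4000 UMIs; 12 were higher in the remainder bin, and 56 were lower in the Ptcra bin and 56 in the Kit or Cpa3 bin. Interferon-stimulated genes past 1.5-fold numbered 3 with 20 CPM and 6 at a rule sum of 16 or more, and heat shock genes 1 in the Kit or Cpa3 bin. The single mitosis gene past 1.5-fold became 0 with a pseudocount of 20 CPM, per-cell means, thinning, centring, the looser filter, rule sums of at least 8, at least 2 or 16 or more, no high doublet scores, 10000 to 30000 UMIs, the remainder bin, and no shared barcodes.

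The early progenitor median was -0.12 in the remainder bin. Cd74 had folds of 0.34 without high doublet scores, 0.38 in the Ptcra bin, 0.17 at 10000 to 30000 UMIs, 0.17 without members rich in class II or Cd79a and 0.15 at a rule sum of 16 or more. H2-Aa had 0.10, 0.039 and 0.069 without high doublet scores, without class II or Cd79a members and at a rule sum of 16 or more, and H2-Eb1 0.0070 without high doublet scores. Fcer1g had -0.0087 and S100a4 -0.10 in the Ptcra bin; Fcer1g had -0.0024 and Ifitm1 -0.015 in the remainder bin. Over 23 alternatives, 6 of them added after the data were seen, 7 of the 24 named genes stayed past 1.5-fold the same way in each: H2-Q7, Hsph1, Ifi27, Isg15, Rtp4, Ssbp4 and Tsc22d3. Leaving out members with any UMI of the B cell, myeloid, erythroid and stromal markers left 4 WT and 5 cKO members and gave no value. The causes were not tested.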
